A study of Drosophila melanogaster with 6 samples.

Results

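Peaks of GAGA factor (GAF), the DNA-binding protein encoded by Trl, were listed at 10 places in the 165 kb of chromosome arm 3R around homothorax (hth). The 10 peaks were all those of the deposited list whose midpoint lay on 3R between 6310000 and 6475000 of FlyBase release 5. They were 10 of 1644 peaks on 3R and of 11713 in the whole list. The rule for members used position alone, but the stretch was picked with earlier results of these data known.

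Chromatin immunoprecipitation with sequencing (ChIP-seq) was applied to whole Drosophila melanogaster embryos aged 8 to 16 h, in 3 GAF ChIP libraries and 3 libraries of input DNA that was not immunoprecipitated. Embryos were fixed in 1.8% formaldehyde for 15 min and the antibody was a rabbit polyclonal. Both groups came from the strain labelled Y cn bw sp, with no treatment or second genotype, and every library carried the same alleles. These were y[1] and oc[R3.2], then Gr22b[1], Gr22d[1] and cn[1], then CG33964[R4.2], bw[1] and sp[1], together with LysC[1], MstProx[1], GstD5[1], Rh6[1] and lab[R4.2]. Whole embryos mix all tissues, so a peak does not tell in which cells GAF was bound. The deposited file was 1 peak list in which single libraries had no values. No result below has a replicate error for that reason, and the depth behind the peaks is unknown.

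Homothorax is a homeodomain protein of the TALE class, related to the vertebrate MEIS proteins. It binds the other TALE cofactor, Extradenticle (exd), and brings it into the nucleus, where the pair joins Hox proteins on DNA and sharpens their choice of target sites. In the embryo hth is known for its part in segment identity, and in the imaginal discs for the proximal parts of the appendages and for antennal identity. GAF is a BTB and zinc finger protein that recognises GA-rich DNA such as GAGAG. It is known for keeping chromatin accessible, for promoters that hold paused RNA polymerase, and for Polycomb response elements, where Polycomb and Trithorax proteins act on developmental genes.

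In the release 6 gene table, which served only for names and gene order, hth (Dmel_CG17117) had 5 RefSeq transcripts. The microRNA gene mir-4944 lay inside hth, and the antisense RNA gene asRNA:CR44018 overlapped one of its ends. The nearest protein-coding neighbours were Cyp12e1, by its name a cytochrome P450 gene, and CG6465. The long non-coding RNA genes lncRNA:CR44939, lncRNA:CR44955 and lncRNA:CR45576 lay between hth and Cyp12e1. No annotation of release 5 was used here. The 10 peaks were therefore not placed against the exons, introns or starts of hth, and a peak may belong to one of the RNA genes or to the sequence beside hth. The 8 Hox genes, among which are the partners of Hth, were all on 3R in the same table and could not be placed on release 5 either.

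The peaks lay in a group of 4 and a more compact group of 6, on opposite sides of a long stretch with no peak. Scores are the authors' own, positive numbers of unstated scale, and serve here to rank peaks within this list. Ranks are given with 1 as the highest. Numbered along the chromosome, peaks 1 to 4 lay from 6320877 to 6361973, a span of 41.1 kb, and peaks 5 to 10 from 6439837 to 6466838, a span of 27.0 kb. The median score was 102 in the first group and 476 in the second, against 71.2 over all peaks of 3R.

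**Figure D1:**
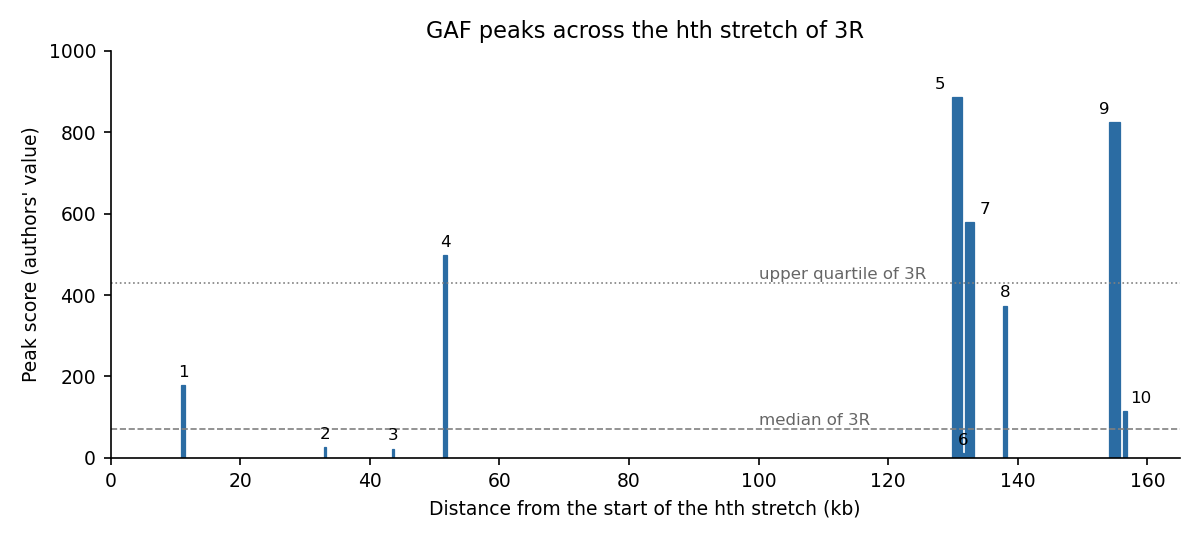
Score of each GAF peak (authors' value, vertical axis) against distance from the start of the hth stretch in kb (horizontal axis). Bars are drawn at the true width of the peaks and numbered 1 to 10, and the lines mark the median (71.2) and upper quartile (429) of the scores on 3R. Peaks 5, 9, 7 and 4 rise above the upper quartile, and 77.9 kb without a peak separate peaks 4 and 5.

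Peak 1 lay from 6320877 to 6321539, was 663 bp wide and scored 178.45. It ranked 3888 of the list by score and 3504 by width, and 626 of 3R by score. It stood apart, with 106 kb free of peaks before it and 21.4 kb after it. Peaks 2 and 3 were narrow and weak. Peak 2, from 6342968 to 6343231, scored 25.68 over a width of 264 bp, ranking 7799 of the list by score and 10011 by width. Peak 3, from 6353449 to 6353676, was the narrowest of the 10 at 228 bp and scored 22.58, ranking 8159 by score and 10971 by width. A gap of 10.2 kb separated them.

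Peak 4 was the only peak of the first group at or above the upper quartile of the scores of 3R. It ran from 6361318 to 6361973, was 656 bp wide and scored 499.02. It ranked 1702 of the list by score and 3561 by width, so it stood higher by score than by width. On 3R, 325 other peaks had a width between 80 and 125% of its own, and 89.8% of these scored lower. It lay 7.64 kb after peak 3 and was the last peak before the long gap.

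Peak 5 had the highest score of the stretch. It lay from 6439837 to 6441322, was 1486 bp wide and scored 885.73, ranking 762 of the list by score and 975 by width. On 3R it ranked 167, and 89.8% of the peaks there scored lower. Peak 7 followed from 6441896 to 6443282, 1387 bp wide, with a score of 578.41 and ranks of 1440 by score and 1103 by width. Between them lay peak 6, from 6441429 to 6441680, 252 bp wide, which had the lowest score of the 10 at 12.31 and ranked 10277 by score and 10338 by width.

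Peaks 5 to 7 thus formed a strong, a weak and a strong peak in close order. Gaps of 106 bp and 215 bp separated them, and peaks 5 and 7 lay 573 bp apart. On 3R, 411 peaks were strong by this measure (at or above the upper quartile), and 31 of them (7.54%) had another such peak within 1 kb, peaks 5 and 7 included. Only 1 other place on 3R had a pair of strong peaks under 1 kb apart with a peak scoring under 20 between them. This arrangement was counted after it had been seen at hth, so the count describes the list. Whether peaks 5 to 7 are separate binding sites or parts of a single bound region listed as several peaks was not tested.

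Peak 8, from 6447735 to 6448369, was 635 bp wide and scored 374.17, ranking 2433 of the list by score and 3728 by width. It lay 4.45 kb after peak 7. Like peak 4 it scored high for its width, above 82.5% of the 332 other peaks of 3R of similar width. Peak 9, from 6464124 to 6465724, was the widest of the 10 at 1601 bp. Its score of 824.77 was second to that of peak 5, with ranks of 869 by score and 867 by width. Peak 10, from 6466166 to 6466838, began 441 bp after it, was 673 bp wide and scored 114.17, ranking 4771 by score and 3453 by width.

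Peaks of nearly equal width differed in score. Peaks 1, 4, 8 and 10 were 635 to 673 bp wide and scored from 114.17 to 499.02. Peak 10 scored above 34.2% of the 319 other peaks of similar width on 3R and peak 1 above 48.8% of 324. Peaks 2 and 3, although weak, scored above 86.1 and 91.3% of the narrow peaks of similar width. The broad peaks 5, 7 and 9 were nearer the middle, above 72.0, 45.9 and 61.2% of theirs. Across the 10 peaks the Spearman rho of width and score was 0.867, and across the 1644 peaks of 3R it was 0.863. Width and score come from the same peak calls, so this is a description of the list.

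**Figure D2:**
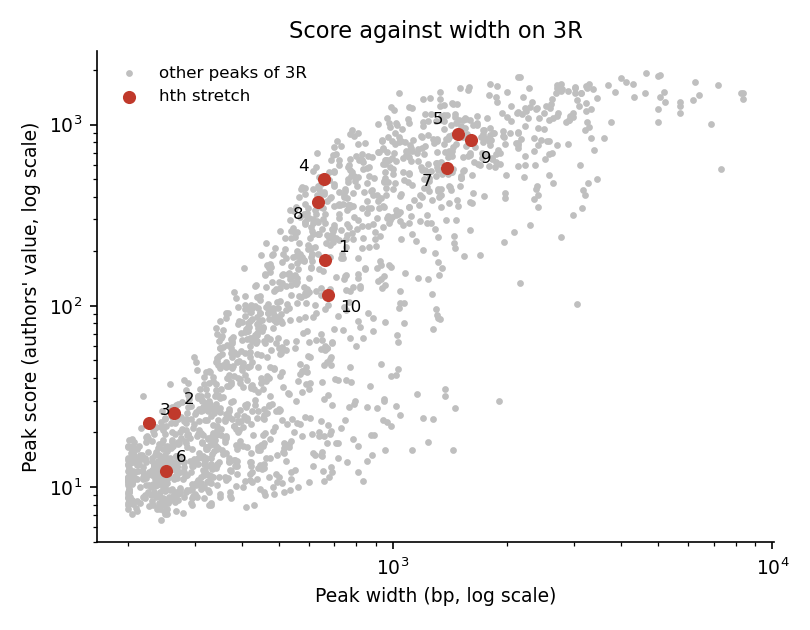
Score (authors' value) against width in bp for the 1644 peaks of 3R, both on log scales, with the 10 peaks of the hth stretch in red and numbered. Of the 4 peaks between 635 and 673 bp wide, peak 4 has the highest score and peak 10 the lowest.

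High scores made up a larger share of the 10 hth peaks than of 3R as a whole, within a wide counting interval. The margin depended on the peaks counted. Of the 10 peaks, 5 scored 300 or more, with a 95% exact binomial interval of 18.7 to 81.3%, against 31.1% of all peaks on 3R. At or above the upper quartile of 3R (429) were 4 of 10, with an interval of 12.2 to 73.8%, against 25% by construction. Both intervals hold the share on 3R. They decide nothing about a difference, because the 10 are every peak of the stretch and are not replicates. Among peaks at or above the list's median score, 2 of 7 reached the quartile recomputed on the peaks kept. With peaks under 500 or under 2000 bp apart joined, it was also 2 of 7, against 25% by construction. Only 3 peaks (2, 3 and 6) scored under the median of 3R, against 50% there by construction, and these 3 were also the narrowest. Widths of 1000 bp or more were found in 3 of 10 peaks (interval 6.67 to 65.2%) and in 25.1% of the peaks of 3R. The median score was 276 at hth and 71.2 on 3R, and the median width 659.5 bp against 544.5 bp. The exact binomial interval of the hth median score ran from 22.58 to 824.77, which spans the value of 3R. These intervals treat neighbouring peaks as independent and cover counting error only.

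The number of peaks in the hth stretch was near the middle of the range on 3R, although its rank moved with the peaks counted. It held 60.6 peaks per Mb, against 58.9 per Mb over the span of 3R from its first to its last peak. For comparison, 3R was laid out in 168 adjoining stretches of 165 kb, hth included. Among the 167 others, 57 (34.1%) held more than 10 peaks, 8 held exactly 10 and 102 held fewer, a rank of 58 of 168. Among peaks at or above the list's median score the rank was 29, with 74.3% of the other stretches lower. With peaks under 500 bp apart joined it was 72, with 43.1% lower. The other stretches held a median of 8 peaks, with quartiles of 6 and 12 and a range of 1 to 32. Peaks covered 4.75% of the hth stretch, and the median of the others was 4.09%, with 71 of them covered more. Over the whole span of 3R the share was 5.03%, slightly above that of hth. The most crowded stretch, from 19015001 to 19180000, held 32 peaks with a median score of 30.6, and the next, from 17365001 to 17530000, held 31 with a median of 84.4.

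The median score of the hth stretch, and its number of peaks at or above the upper quartile of 3R, ranked higher than its number of peaks. Its median score of 276 was exceeded in 32 of the 167 other stretches, whose median was 93.5. Among the 145 stretches with 5 or more peaks it ranked 22. Among the 56 other stretches with 8 to 12 peaks, 7 had a higher median score. The 8 other stretches with exactly 10 peaks had median scores from 14.5 to 166, all below that of hth. These 8 held 0 to 4 peaks at or above the upper quartile of 3R, and 1 of them equalled the 4 at hth. Over all other stretches, 18 held more than 4 such peaks, 24 held 4 and 125 held fewer. The highest single score was ordinary. The 885.73 of peak 5 was exceeded by the best peak in 89 of the 167 others, and 2 of the 8 stretches with 10 peaks had a higher best score, up to 1653.5.

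**Figure D3:**
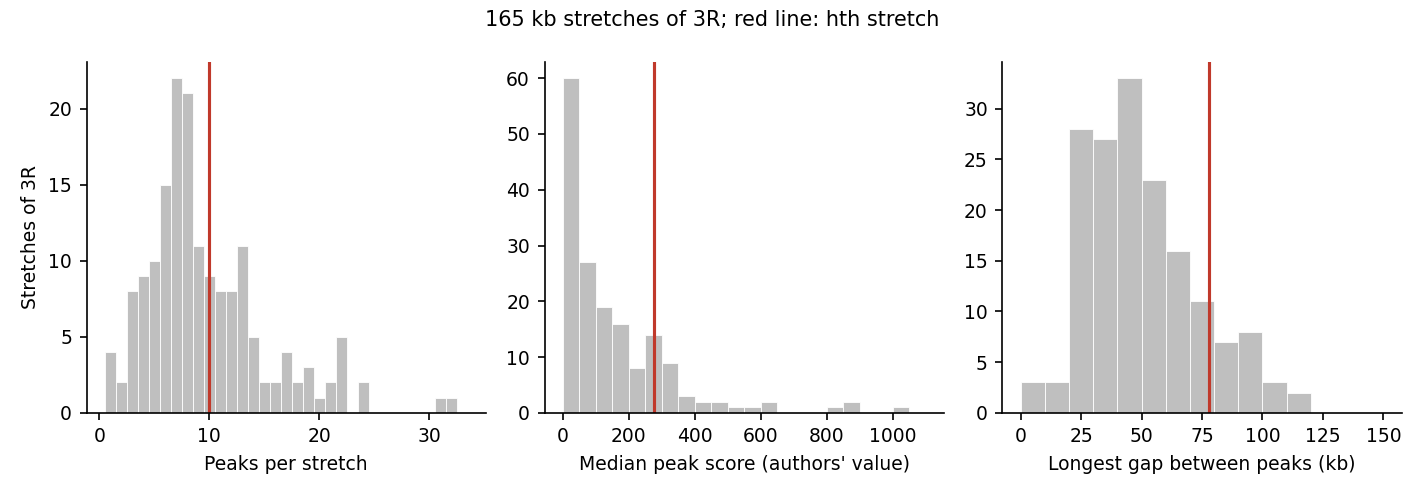
Number of 165 kb stretches of 3R (vertical axis) by peaks per stretch, by median peak score (authors' value) and by longest gap between peaks in kb (left to right), with the hth stretch as a red line. The hth stretch lies near the middle of the first distribution at 10 peaks and in the upper part of the other two at 276 and 77.9 kb.

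Spacing within the stretch was uneven. The 9 gaps, from the end of a peak to the start of the next, ranged from 106 bp to 77.9 kb with a median of 7.64 kb, against a median of 5.34 kb over the 1643 gaps of 3R. The order of these medians depended on the peaks counted. With joining under 500 bp they were 12985.5 bp at hth and 9961 bp on 3R, with joining under 2000 bp 12985.5 and 15343 bp, and among peaks at or above the list's median score 10103 and 17851 bp. A neighbour within 1 kb was found for 5 of the 10 peaks (5, 6, 7, 9 and 10) and for 44.3% of the peaks of 3R. All 5 were in the second group. The gap from 6361974 to 6439836 took up 47.2% of the stretch. It ranked 63 of the 1643 gaps of 3R, and 3.83% of them were as long or longer. The longest gap within a stretch exceeded it in 26 of the 163 others with at least a pair of peaks. Gaps that cross from one stretch to the next do not enter that comparison.

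Sequence on both sides of the 10 peaks was also empty. Before peak 1, 106 kb held no peak, the 22nd longest gap of 3R, and the nearest peak on that side, from 6212395 to 6214689, scored 1245.65 and was 2295 bp wide. After peak 10 the list was empty for 39.8 kb, a gap ranking 211, up to a narrow peak from 6506642 to 6506892 with a score of 15.00. The limits of the stretch therefore fell in empty sequence on both sides. The midpoints just inside were 11207.5 bp and 8498.5 bp from the limits, and those just outside were 96458.5 bp and 31766.5 bp away.

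**Figure D4:**
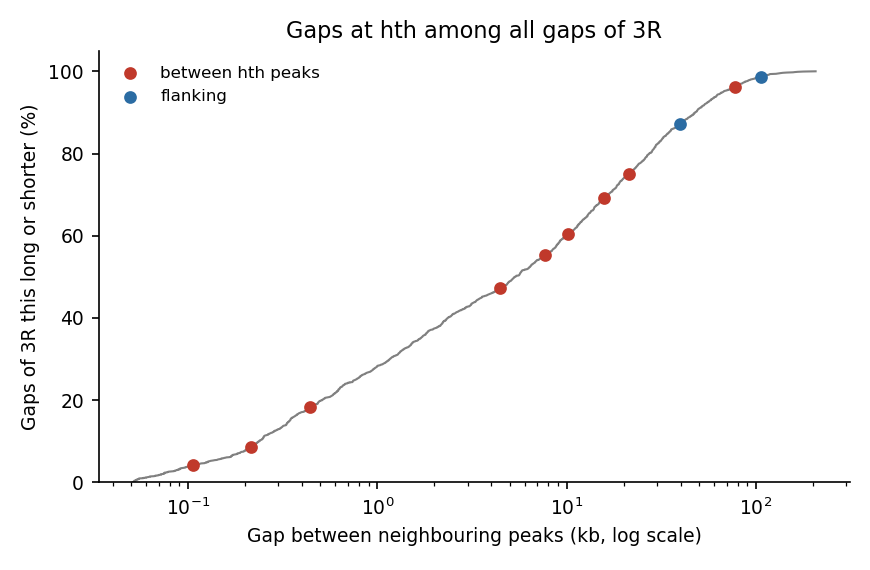
Cumulative share of the 1643 gaps of 3R (vertical axis, %) by gap length in kb on a log scale, with the 9 gaps between hth peaks in red and the 2 flanking gaps in blue. The gaps at hth run from 106 bp to 106 kb, and the long inner gap and the gap before peak 1 lie near the upper end of the curve.

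The second group held most of the sequence covered by peaks in the stretch. Its 6 peaks made up 76.9% of the bases covered by the 10 peaks while spanning 16.4% of the stretch, and peaks covered 22.3% of the group's own span. The first group covered 4.41% of its span. Of the 1639 runs of 6 neighbouring peaks on 3R, 295 had a shorter span than the second group, and the median span was 75.6 kb. Of the 1641 runs of 4, 50.7% had a shorter span than the first group. The groups were divided at the longest gap after the positions had been seen, so their difference is a description.

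The 2 adjoining stretches of the same length had lower median scores than hth. The stretch just before it, from 6145001 to 6310000, held 12 peaks with a median score of 75.8, and 3 of these reached the upper quartile of 3R. Its highest score, 1245.65, was above the highest at hth, 885.73. The stretch just after it, from 6475001 to 6640000, held 9 peaks with a median score of 29.9 and a highest score of 230.18, with 0 at that level.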

How the data were processed

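The authors deposited 1 peak list for 6 libraries, with a start, an end and a score for each peak. The deposited score is a positive number whose scale is not given in the sources used here, nor is the calling threshold or how the libraries were combined. Per the file headers, peaks came from MACS on FlyBase release 5. Per the submitters' processing notes, the tools included BWA, MACS2 and CASAVA (1.7.0.2, 1.7.0.3), with build BDGP5. The deposited start and end (positions in bases, unit other) are printed with 1 added to each start, because starts begin at 0 in the list.

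Ranks, gaps and shares were computed with Python 3.11.15, numpy 2.4.6, pandas 2.3.3 and scipy 1.17.1, and plotted with matplotlib 3.10.9. Other stretches adjoined the hth stretch end to end and lay whole between the first and last peak of 3R. Peaks of similar width were those with 80 to 125% of the width. Counting and joining were checked on simulated peaks. Every peak of the stretch is named, by rule. The members and lists were chosen with earlier results of these data known. No test was run, because peaks and stretches are not replicates. A planned count of GAGAG in promoters was not run, since no sequence was used here. Per-sample columns that match no sample numbered 0.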

Additional observations from a re-analysis of the deposited data

How the results depend on the processing

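Of 51 values of 7 results under alternatives, 40 stayed within 1.5 times (counts) or within the 95% binomial interval, and 11 moved. The intervals of the medians were wide, 22.58 to 824.77 for score, 252 to 1486 bp for width and 215 to 21428 bp for gap. Leaving out the 1% highest scores, counting any overlap or adding 10 kb at each end kept the same 10 peaks. The 40 are therefore no measure of robustness. The rank of the peak count, 58 of 168, became 29 among peaks at or above the list's median score, 72 of 168 with joining under 500 bp, and 65 of 150 with 10 kb more at each end. Peaks at or above the upper quartile of 3R numbered 2 of 7 among peaks at or above the list's median score, in place of 4 of 10. They also numbered 2 of 7 with joining under 500 or 2000 bp. The quartile was recomputed on the peaks kept or joined and rose from 429 to 784, 533 and 635 in that order, and joining also merged peaks 5 to 7. The median gap ranged from 7641 to 12985.5 bp. The share covered was 4.75%, against 4.30% among those peaks, 5.22% with either joining, and 4.45 and 4.24% with limits 10 kb narrower and wider. Its interval treats bases as independent and is narrow. The stretch held 7 to 10 peaks under all alternatives. The median score ranged from 276 to 499. It was 499 among peaks at or above the list's median score, a filter that removes low scores. It was 374 with limits 10 kb narrower and with either joining, where a joined peak took the highest score of its parts. The median of 3R, 71.2 in the main setting, was not recomputed for these alternatives. The range is therefore no check on the difference between hth and 3R. The cause was not tested for the ranks and shares. No paired analysis was possible because single libraries have no values in the deposited list, and no replicate could be left out for the same reason. Without the depth, a limit of detection cannot be given.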
